A study of Mus musculus with 24 samples.

Results

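The interferon response genes described here are 42 listed genes that interferons induce in mouse cells, taken by symbol from the 21793 genes of a table of hippocampal messenger RNA. All 42 were found in the table, and their levels were followed across 24 mice. The list holds 3 transcription factors of the interferon signal (Stat2, Irf7, Irf9), 6 nucleic acid sensors and helpers, 11 antiviral effectors, 3 genes of ISG15 and its conjugation, the 3 genes Parp9, Dtx3l and Parp14, 6 interferon-induced GTPases, 2 immunoproteasome subunits and 8 other induced genes.

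All mice were female. Mice of the line 3xTg-AD (3xTg) model Alzheimer's disease, and B6129SF2/J mice (WT) were the comparison. The 3xTg-AD line carries mutant human APP and MAPT transgenes driven by the Thy1 promoter, which is active in neurons. WT mice are a separately bred hybrid strain, so an effect of the transgenes and a difference in strain background cannot be told apart. Feeding on 1 of 3 diets began at 3 months of age and lasted 6 months. The ketogenic diet (K) was free of carbohydrate, with 6.7 kcal/g, 10% protein and 90% long-chain triglyceride. The medium-chain triglyceride diet (M, MCT) held 70% carbohydrate, 10% each of long-chain triglyceride, medium-chain triglyceride and protein, with 4.1 kcal/g. The control diet (C) had the same energy, 70% carbohydrate and 10% protein, and all of its fat, 20%, was long-chain triglyceride. There were 5, 4 and 3 libraries of 3xTg mice on the ketogenic, MCT and control diets, and 4 WT libraries on each diet. Libraries are named by strain, diet and replicate, as in 3xTg_K_5.

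Values are normalised counts, the reads of a gene scaled by 1 factor per library. Libraries held 10.1 to 25.8 M reads, except 3xTg_K_2 with 2.65 M, in which 1 read is worth 5.402 normalised counts. Thy1, whose promoter drives the transgenes, lay between 20385 and 29277 in 10 of the 12 libraries labelled 3xTg and between 6952 and 8137 in 11 of the 12 labelled WT. It was 8112 in the library labelled 3xTg_K_1, 9189 in the library labelled 3xTg_C_3 and 23048 in the library labelled WT_M_2. These 3 libraries went against their labels, and the comparisons were computed with all 24 libraries under their labels and again without these 3, with the second values given where they differ most. The tissue was a whole hippocampus, in which fewer cells of a type and less RNA per cell cannot be told apart. Microglia markers summed to between 5434 and 7106 in every library, and markers of T and NK cells to at most 7.93.

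Interferons signal through receptors on the cell surface. The type I receptor, built of Ifnar1 and Ifnar2, activates the kinases Jak1 and Tyk2, and a complex that holds STAT2 and IRF9 then binds the interferon-stimulated response element (ISRE) in promoters. Type II interferon, the product of T and NK cells, acts through another element, the GAS, and is best known in mice for inducing the GTPases of the Gbp and Irg families. In brain, microglia, astrocytes, endothelial cells and neurons can all respond to interferon.

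The ISRE core was common in the promoters of these genes. RefSeq promoters on GRCm38.p6, each running from 250 bases before to 50 after a start site, matched 33 of the 42 genes by symbol. The ISRE core, a half-site repeated after a short spacer and searched on both strands, occurred in 17 of these 33 genes (51.5%) and in 18 of their 38 promoters (47.4%). It occurred in 3.44% of all 32851 promoters of that length. The core of the GAS element, a palindrome, occurred in 8 of these 38 promoters (21.1%) and in 8.3% of all promoters. A match describes the letters only and is not a measured binding site.

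The 5 promoters printed here were picked from genes named in the results below, and each holds an ISRE match. Other genes that the results turn on did not: the promoters of Oasl2, Irf7 and Psmb8 held 0 matches, and Usp18 had no promoter entry. The 5 are printed with every ISRE match in capitals, each 5′ to 3′ on the strand of its gene. Those of Ifit3 (chr19:34583279-34583578, plus strand) and Ifit3b (chr19:34607707-34608006, plus strand), neighbours that encode closely related tetratricopeptide proteins, each hold 2 matches. They start at -156 and -122 from the start site in Ifit3 and at -188 and -154 in Ifit3b. That of Isg15 (chr4:156200769-156201068, minus strand), the ubiquitin-like protein of the response, holds 3 overlapping matches that start at -78, -72 and -66. That of Gbp3 (chr3:142559794-142560093, plus strand), a guanylate-binding GTPase, holds 2 overlapping matches that start at -45 and -39, in 1 of its 2 listed promoters. That of Eif2ak2 (chr17:78882523-78882822, minus strand), the kinase PKR that double-stranded RNA activates, holds 1 match that starts at 18, after the start site.
Ifit3: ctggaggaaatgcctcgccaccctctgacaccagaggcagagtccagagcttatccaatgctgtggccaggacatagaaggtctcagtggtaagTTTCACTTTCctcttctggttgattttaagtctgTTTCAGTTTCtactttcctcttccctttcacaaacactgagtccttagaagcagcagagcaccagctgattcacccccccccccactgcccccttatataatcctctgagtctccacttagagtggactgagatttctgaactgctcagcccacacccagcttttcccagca
Ifit3b: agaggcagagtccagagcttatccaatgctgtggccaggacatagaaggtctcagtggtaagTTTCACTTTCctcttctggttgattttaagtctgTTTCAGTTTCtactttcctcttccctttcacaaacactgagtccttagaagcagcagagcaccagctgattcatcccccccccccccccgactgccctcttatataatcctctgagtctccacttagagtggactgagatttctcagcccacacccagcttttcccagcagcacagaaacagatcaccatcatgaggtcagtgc
Isg15: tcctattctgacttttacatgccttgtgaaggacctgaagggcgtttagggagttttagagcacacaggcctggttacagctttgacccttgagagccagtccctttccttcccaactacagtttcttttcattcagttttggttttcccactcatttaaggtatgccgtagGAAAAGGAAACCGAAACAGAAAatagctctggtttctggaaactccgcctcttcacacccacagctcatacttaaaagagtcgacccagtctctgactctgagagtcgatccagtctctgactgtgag
Gbp3: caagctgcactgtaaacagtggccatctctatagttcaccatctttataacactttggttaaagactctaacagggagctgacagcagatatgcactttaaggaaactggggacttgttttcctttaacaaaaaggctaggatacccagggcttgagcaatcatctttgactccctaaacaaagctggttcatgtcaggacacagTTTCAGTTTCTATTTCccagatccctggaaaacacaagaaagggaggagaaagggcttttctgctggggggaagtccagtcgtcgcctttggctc
Eif2ak2: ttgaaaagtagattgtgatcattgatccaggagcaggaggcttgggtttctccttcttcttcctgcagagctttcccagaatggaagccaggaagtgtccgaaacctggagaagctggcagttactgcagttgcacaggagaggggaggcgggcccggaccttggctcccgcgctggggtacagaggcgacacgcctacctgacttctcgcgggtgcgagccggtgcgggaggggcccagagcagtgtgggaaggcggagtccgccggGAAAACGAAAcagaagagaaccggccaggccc

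The level of these genes differed more from mouse to mouse than that of most genes. The SD between mice of a group, on the log2(normalised count + 1) scale, had a median of 0.36 over the 41 members tested, with a range of 0.13 (Samhd1 and Cmpk2) to 0.90 (Isg15). The median over all 14162 genes tested was 0.14. Usp18, Irf7, Oas2, Ifi44, Oasl2 and Ifit1 had SDs between 0.70 and 0.88, and Ifi27, Dtx3l and Ifit2 had SDs between 0.15 and 0.17. The members and all genes were not matched for level, and counting error adds to the SD at low counts. Isg15, Usp18, Irf7 and Oas2 had mean normalised counts of 9.32, 14.5, 17.6 and 5.51, against 263 for Samhd1 and 311 for Cmpk2. Oasl2 and Ifit1 had means of 72.4 and 42.6. The part of level in the larger SD was not tested. Zbp1, a sensor of Z-form nucleic acid, was the member not tested, since it never reached a normalised count of 10.

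**Figure D1:**
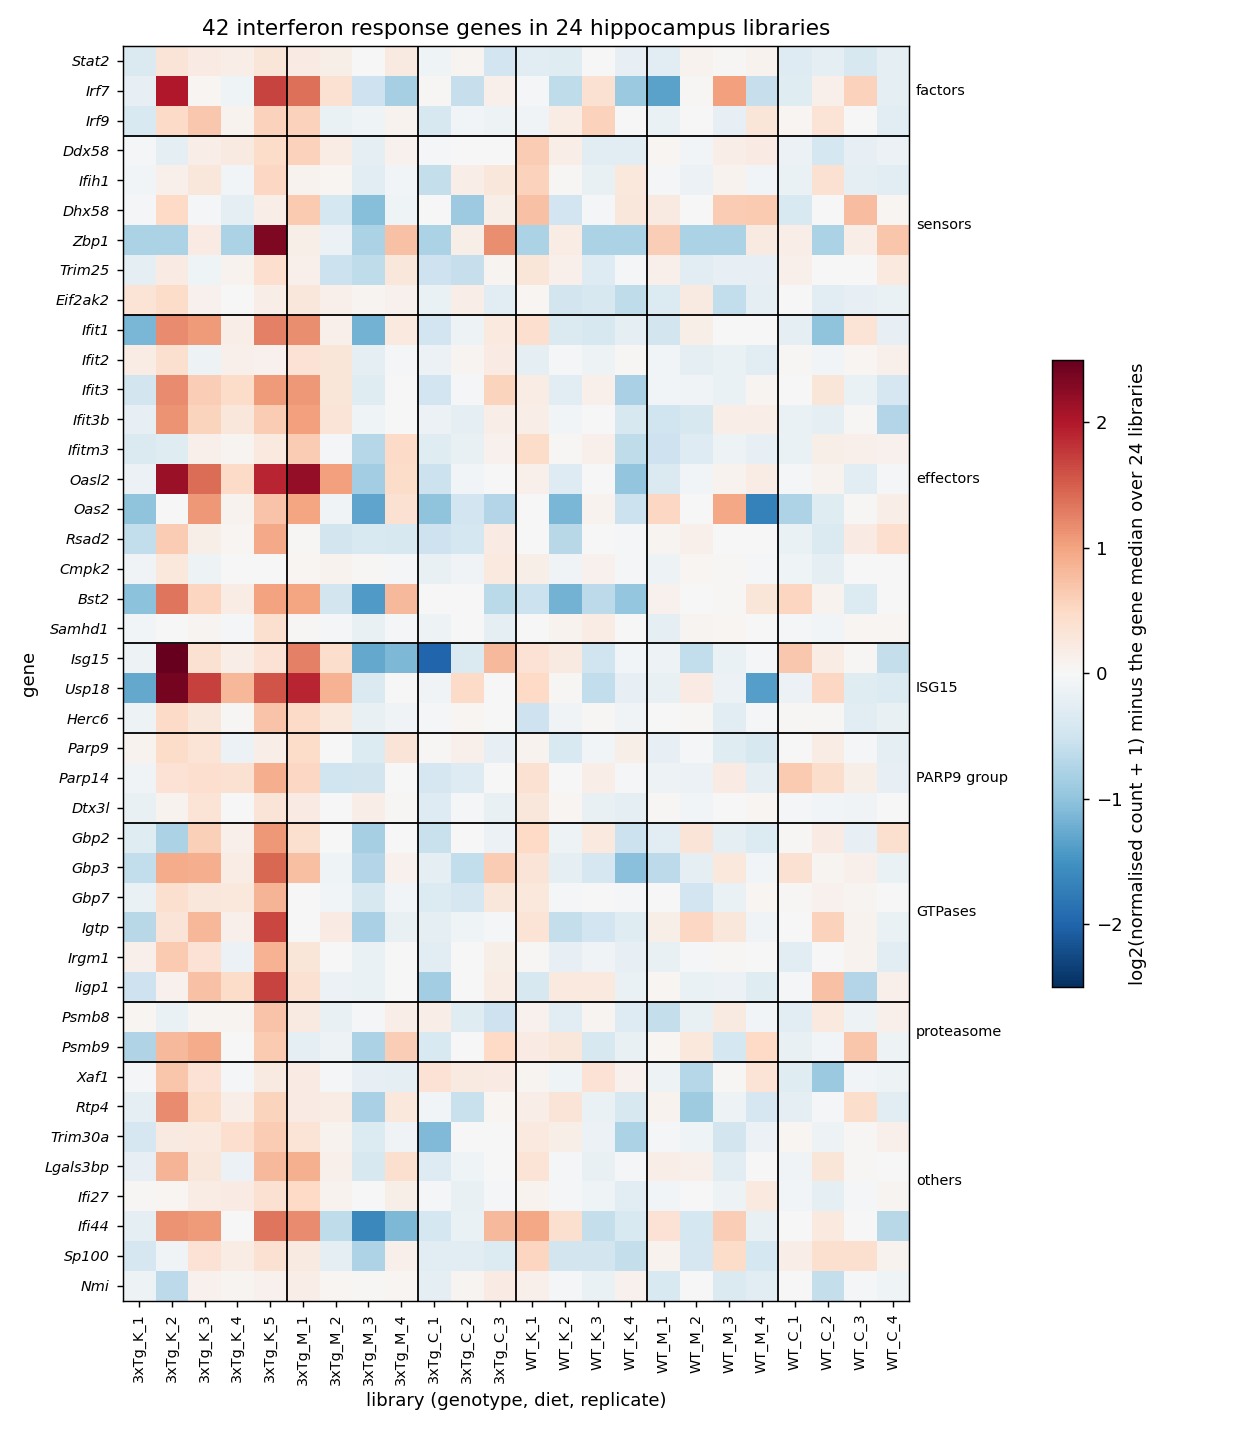
The map shows log2(normalised count + 1) of each of the 42 genes minus its median over the 24 libraries, with genes in rows by role, libraries in columns by group, and colours saturating at 2.5 either way. Libraries 3xTg_K_2, 3xTg_K_5 and 3xTg_M_1 stand out in red, all of them in Oasl2, at 221, 184 and 227 normalised counts, with 3xTg_K_2 also dark in Isg15 (48.6) and 3xTg_K_5 in Zbp1 (7.69).

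Single mice stood above their groups over much of the list. Mouse 3xTg_M_1 was the highest of its group of 4 for 35 of the 42 genes, where 24.3% of all genes tested peaked in that library. Its 42 values lay on average 0.69 above the mean of the other mice of its group on the log2 scale, and 17 lay over 1.5-fold above the median of those mice, as did 2.93% of all genes. Mouse 3xTg_K_5 was the highest of its group of 5 for 22 genes, against 21.8% of all genes, with a mean of 0.58 above the others. Mouse 3xTg_K_2 was the highest for 16 genes, against 23.5% of all genes, with a mean of 0.30, from a library of few reads.

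Other mice of the same groups were low. The library labelled 3xTg_K_1 was the lowest of its group for 31 of the 42 genes, against 20.5% of all genes, and the highest for 0. Mouse 3xTg_M_3 was the lowest of its group for 34 genes, against 25.5% of all genes, and also the highest for 0. Their means were -0.77 and -0.70 on the log2 scale relative to the other mice of their groups. Over all 24 libraries, 3xTg_K_5 was the highest for 16 of the 42 genes (5.75% of all genes tested), 3xTg_K_2 for 12 (10.8%), 3xTg_M_1 for 5 (3.11%) and 3xTg_K_3 for 4 (4.2%). The other 5 genes peaked in WT_K_1 (3), in WT_C_3 (1) and in the library labelled 3xTg_C_3 (1).

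**Figure D2:**
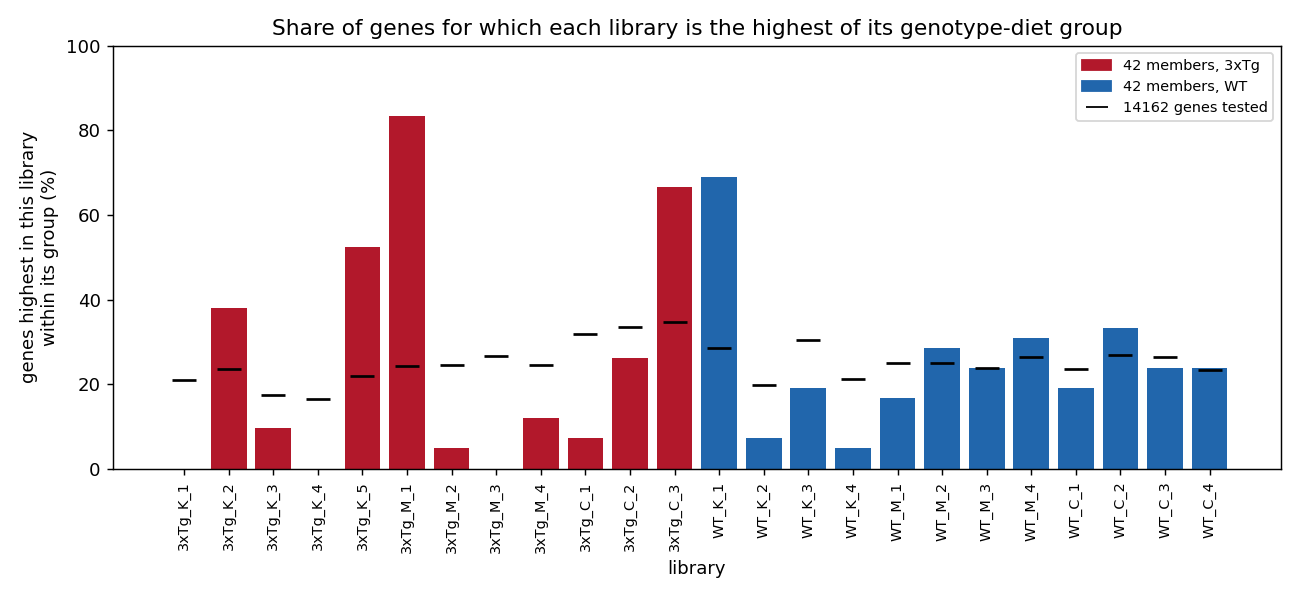
Bars give, for each library, the share of the 42 genes for which it was the highest of its genotype-diet group, and black dashes give the same share over all 14162 genes tested. The bar of 3xTg_M_1 stands for 35 genes and that of 3xTg_K_5 for 22, while 3xTg_K_1, 3xTg_K_4 and 3xTg_M_3 have no bar.

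The leads of these mice fell in several roles. In 3xTg_M_1 all 3 genes of the ISG15 group were the highest of the group, with a mean of 1.38 above the other mice. Of the 11 antiviral effectors 10 were, with a mean of 0.89, and of the 3 transcription factors 2 were, with a mean of 0.80. Of the 8 other induced genes 7 were, with a mean of 0.67. The GTPases followed there, with 5 of 6 the highest and a mean of 0.49, as did all of Parp9, Dtx3l and Parp14, also with a mean of 0.49. Its 6 largest leads over the next mouse were those of Ifi44, Oasl2, Usp18, Irf7, Ifit1 and Isg15. In 3xTg_K_5 the GTPases led: all 6 were the highest of the group, with a mean of 1.09, while 4 of the 11 effectors were. Its 6 largest leads were those of Zbp1, Iigp1, Igtp, Psmb8, Gbp3 and Parp14. In 3xTg_K_2 no GTPase was the highest, with a mean of -0.15 over the 6, but 6 effectors were. Its leads were largest for Isg15, Usp18, Rtp4, Ifit3b, Dhx58 and Bst2, which rested on 3 to 15 reads each.

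A pair of induced GTPases outside the list was named after their values were seen. Gbp4, another guanylate-binding GTPase, had 239 normalised counts in 3xTg_K_5, against 32.4 in 3xTg_K_2 and 8.1 in 3xTg_M_1. Tgtp2, a GTPase of the Irg family, had 44.2, 5.4 and 0 in these mice. Outside them, WT_C_2 was next for both, at 95.3 for Gbp4 and 16.8 for Tgtp2, and 3xTg_K_3 followed at 65.3 and 15.6.

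Markers of other cell types were also high in some of these libraries. In 3xTg_M_1 the 10 border macrophage and monocyte markers summed to 438, the most of any library, with 8 of 10 the highest of the group, and Ly6c2 was at 0. The sums of the other MCT-fed 3xTg mice and of all other groups lay between 165 and 364. Meningeal fibroblast markers summed to 2206 in 3xTg_M_1, with 5 of 9 the highest of the group and a mean of 0.87 above the other mice on the log2 scale. In 3xTg_M_4 they summed to 2147, with 4 of 9 the highest and a mean of 1.05. For the 42 genes 3xTg_M_4 was the highest of its group for 5, against 24.6% of all genes, with a mean of 0.02. In 3xTg_K_5 the border macrophage sum was 231, with 3 of 10 the highest of the group and a mean of 0.47 above the other mice on the log2 scale. The endothelial and mural sum of 3xTg_K_5 was 6284, with 6 of 13 the highest of the group, whose other sums lay between 5209 and 5979. In 3xTg_K_2, the library of few reads, the border macrophage sum was 281, the most of that group, with 4 of 10 the highest and 4 at 0. The mean deviation of these markers there was -0.10 on the log2 scale, so they were not high on that measure. The part of these markers in the interferon result was not tested. Microglia markers deviated on average by 0.04 in 3xTg_M_1, 0.02 in 3xTg_K_2 and -0.13 in 3xTg_K_5 from the other mice of the group on the log2 scale. Of the 10 T and NK cell markers found, 5, 9 and 8 were at 0 in these libraries, within the 5 to 10 at 0 over all libraries. Their mean deviations in these libraries were 0.23, -0.06 and -0.08, at sums of 6.3, 5.4 and 2.88 normalised counts.

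Stat2 and Irf7 represent the transcription factors. Stat2, a part of the complex that binds the ISRE, had 365, 583, 537, 525 and 572 normalised counts in ketogenic-fed, 535, 517, 466 and 543 in MCT-fed and 431, 489 and 333 in control-fed 3xTg mice. It had 389, 380, 467 and 404 in ketogenic-fed, 389, 497, 474 and 495 in MCT-fed and 375, 394, 351 and 393 in control-fed WT mice. The lowest values of 3xTg mice, 365 and 333, were those of the libraries labelled 3xTg_K_1 and 3xTg_C_3, and the highest WT value, 497, was that of the library labelled WT_M_2, and 3xTg_M_3 at 466 also lay below WT_M_4 at 495, so the genotypes overlapped.

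Irf7, which amplifies interferon production, was high in a few mice only. It had 12, 59.4, 14.6, 12.9 and 47.1 normalised counts in ketogenic-fed, 37.8, 18.6, 9.52 and 7.44 in MCT-fed and 14.3, 9.08 and 15.3 in control-fed 3xTg mice. In WT mice it had 13.7, 8.7, 18.4 and 6.89 on the ketogenic, 4.93, 14.3, 29.5 and 9.05 on the MCT and 11.1, 15.4, 21.5 and 11.6 on the control diet. Mice 3xTg_K_2, 3xTg_K_5 and 3xTg_M_1 lay above all others, and the next was WT_M_3 at 29.5. The value of 3xTg_K_2 rested on 11 reads, with an exact 95% Poisson interval of 29.7 to 106, which covers counting error only.

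Of the sensors, Eif2ak2 was the one that passed a test between genotypes, given with the comparisons. It had 210, 227, 179, 166 and 186 normalised counts in ketogenic-fed, 202, 180, 173 and 177 in MCT-fed and 147, 184 and 135 in control-fed 3xTg mice. It had 170, 120, 125 and 106 in ketogenic-fed, 130, 194, 108 and 141 in MCT-fed and 164, 137, 143 and 146 in control-fed WT mice. Ketogenic-fed mice overlapped at 166 in 3xTg and 170 in WT, and in MCT-fed mice the library labelled WT_M_2 lay within the 3xTg range. Zbp1 had 8 reads (7.69 normalised counts) in 3xTg_K_5 and at most 2.86 normalised counts in every other library. The RNA helicases Ddx58 (RIG-I), Ifih1 (MDA5) and Dhx58 (LGP2) and the ubiquitin ligase Trim25, which acts on RIG-I, peaked in WT_K_1, WT_K_1, WT_C_3 and 3xTg_K_5.

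Among the antiviral effectors Oasl2, of the oligoadenylate synthetase family, had the clearest contrast between mice. It had 43.8, 221, 129, 68.2 and 184 normalised counts in ketogenic-fed, 227, 100, 26.2 and 67 in MCT-fed and 33.1, 46.3 and 48.7 in control-fed 3xTg mice. In WT mice it had 53.5, 38.7, 48.5 and 24.1 on the ketogenic, 37.8, 46.4, 51.5 and 55.3 on the MCT and 47.3, 51.8, 40.2 and 47.5 on the control diet. The highest WT value was 55.3, and 7 mice exceeded it, all of them 3xTg mice on the ketogenic or MCT diet. The library labelled 3xTg_K_1 and mouse 3xTg_M_3 lay within the range of the control-fed mice or below it. The 41 reads behind the value of 3xTg_K_2 give an interval of 159 to 300.

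Ifit3, whose family binds foreign RNA, followed the same mice. It had 42.7, 135, 90.6, 81.2 and 125 normalised counts in ketogenic-fed, 126, 73.4, 47.6 and 59.5 in MCT-fed and 41.9, 57.2 and 86.8 in control-fed 3xTg mice. It had 67.3, 48.3, 64.1 and 33.3 in ketogenic-fed, 55.9, 55.2, 52.6 and 62.3 in MCT-fed and 58.5, 72.8, 52.3 and 43.9 in control-fed WT mice. All 6 groups overlapped, and Ifit3b was likewise highest in 3xTg_K_2 (81) and 3xTg_M_1 (75.6), against at most 41.2 in WT mice. Of the 50-base stretches of the longest coding transcript, 51.2% of those of Ifit3 also occurred in Ifit3b, so reads of these genes may be divided between them uncertainly.

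Bst2, which encodes tetherin, a protein that holds budding virus at the cell surface, had 6.57, 37.8, 21.4, 16.5 and 29.8 normalised counts in ketogenic-fed 3xTg mice, against 9.61, 5.8, 8.74 and 6.89 in ketogenic-fed WT mice. Apart from the library labelled 3xTg_K_1, every ketogenic-fed 3xTg mouse lay above every ketogenic-fed WT mouse. It had 29.7, 10.2, 4.76 and 26 in MCT-fed and 14.3, 14.5 and 8.59 in control-fed 3xTg mice, against 15.6, 14.3, 14.7 and 18.1 in MCT-fed and 21.3, 15.4, 11.2 and 14.3 in control-fed WT mice. On those diets the genotypes overlapped, and ketogenic-fed WT mice lay below all MCT-fed and control-fed WT mice. Ifit1 reached 79.9 to 91.3 in 3xTg_K_3, 3xTg_M_1, 3xTg_K_2 and 3xTg_K_5 and at most 50.8 in any other mouse. Rsad2, which encodes viperin, peaked at 53.8 in 3xTg_K_5, and Oas2 ranged from 1.01 to 12.7 over the 24 libraries. Samhd1, which degrades nucleotides, and Cmpk2, a mitochondrial nucleotide kinase, had ranges of 223 to 347 and 263 to 373.

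Isg15 and Usp18, the enzyme that removes ISG15 from proteins and damps the receptor, were measured at low counts. Isg15 had 6.57, 48.6, 9.75, 8.23 and 9.61 normalised counts in ketogenic-fed, 18.9, 10.2, 2.38 and 2.79 in MCT-fed and 1.1, 5.45 and 13.4 in control-fed 3xTg mice. It had 9.61, 8.7, 4.85 and 6.89 in ketogenic-fed, 6.57, 4.41, 6.31 and 7.04 in MCT-fed and 12.1, 8.4, 7.48 and 4.48 in control-fed WT mice. The value of 48.6 in 3xTg_K_2 rested on 9 reads, with an interval of 22.2 to 92.3, and 3xTg_M_1 followed at 18.9 from 21 reads. Usp18 had 54, 33.1, 29.8 and 17.6 normalised counts in 3xTg_K_2, 3xTg_K_3, 3xTg_K_5 and 3xTg_K_4, and 37.8 and 18.1 in 3xTg_M_1 and 3xTg_M_2. It lay between 3.02 and 14 in WT mice. The remaining 3xTg mice lay within that range, with the library labelled 3xTg_K_1 at 3.28 and control-fed 3xTg mice at 8.82 to 13.6. Herc6, the ligase that attaches ISG15 in mice, ranged from 67.3 to 158, with its highest value in 3xTg_K_5.

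**Figure D3:**
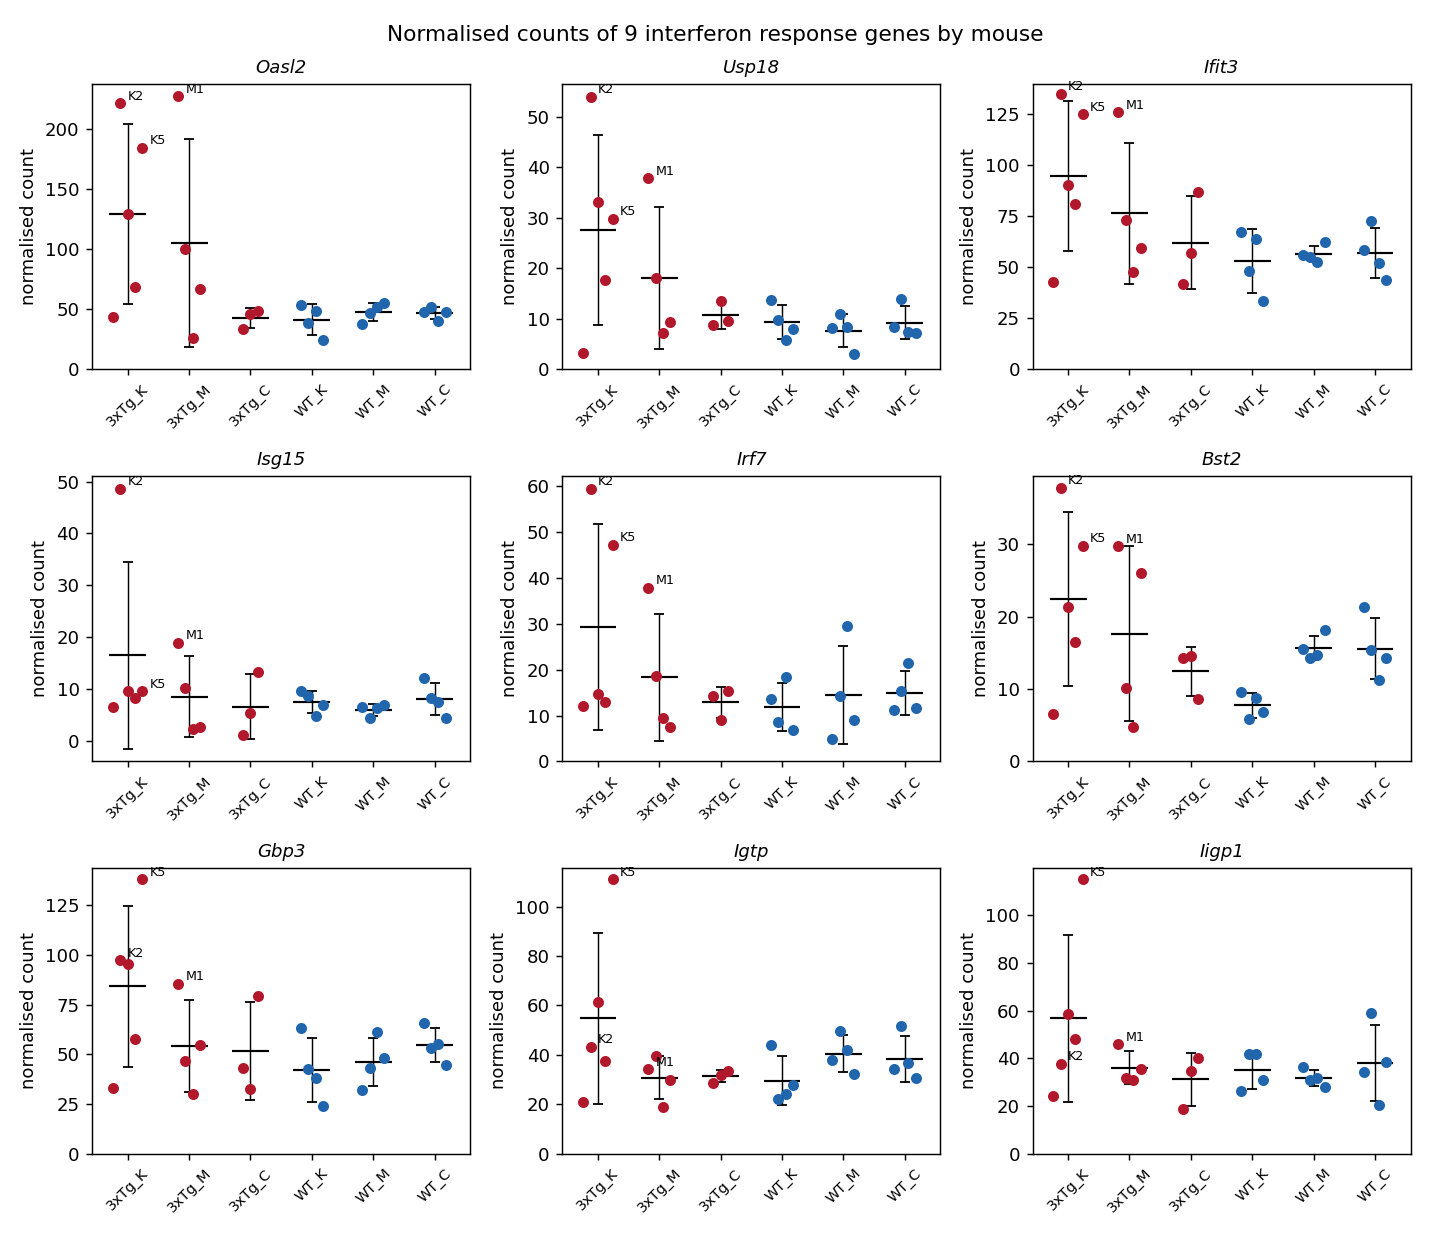
Each point is the normalised count of 1 mouse, horizontal lines are group means and bars are SDs, with 3xTg groups in red and WT groups in blue and the mice 3xTg_K_2, 3xTg_K_5 and 3xTg_M_1 marked. Oasl2 reached 221, 184 and 227 in these mice, Isg15 was high in 3xTg_K_2 at 48.6, and Igtp and Iigp1 reached 111 and 115 in 3xTg_K_5.

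The GTPases, which gather on the vacuoles of pathogens inside cells, peaked in 3xTg_K_5. Gbp3 had 32.8, 97.2, 95.5, 57.6 and 138 normalised counts in ketogenic-fed, 85.5, 46.8, 30.1 and 54.9 in MCT-fed and 43, 32.7 and 79.2 in control-fed 3xTg mice. It had 63.2, 42.5, 37.9 and 24.1 in ketogenic-fed, 32, 43, 61 and 48.3 in MCT-fed and 65.9, 53.2, 55.1 and 44.8 in control-fed WT mice. All groups overlapped, and the library labelled 3xTg_C_3 held the high value of the control-fed 3xTg mice.

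Igtp and Iigp1 showed the lead of 3xTg_K_5 most plainly. Igtp had 111 normalised counts there, against 20.8 to 61.4 in the other ketogenic-fed 3xTg mice. Iigp1 had 115 there, against 24.1 to 58.5 in the others. In WT mice Igtp lay between 22.2 and 51.8 and Iigp1 between 20.6 and 58.8, with WT_C_2 the highest for both. Irgm1, a regulator of the other Irg proteins, had 154, 221, 181, 128 and 258 in ketogenic-fed 3xTg mice and 144, 122, 133 and 123 in ketogenic-fed WT mice, which overlapped through 3xTg_K_4. Gbp7 had 87.6, 130, 120, 118 and 178 in ketogenic-fed, 97.2, 93.1, 73.8 and 93 in MCT-fed and 77.2, 73.6 and 119 in control-fed 3xTg mice, and 70.6 to 118 in WT mice.

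Psmb8, a catalytic subunit of the immunoproteasome, which cuts proteins into peptides for presentation, had 31.7, 27, 32.2, 31.8 and 50.9 normalised counts in ketogenic-fed, 36, 26.5, 29.3 and 34.4 in MCT-fed and 34.2, 24.5 and 21 in control-fed 3xTg mice. It had 32.9, 25.1, 32 and 24.1 in ketogenic-fed, 19.7, 26.5, 35.8 and 29.2 in MCT-fed and 25.1, 36.4, 28 and 33.2 in control-fed WT mice. Only 3xTg_K_5, at 50.9, lay above the WT range. The other subunit, Psmb9, ranged from 6.35 to 23.4 over all libraries.

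Parp14, a mono-ADP-ribosyltransferase, and the partners Parp9 and Dtx3l lie close together on chromosome 16. Parp14 had 51.5, 70.2, 73.1, 71.8 and 104 normalised counts in ketogenic-fed, 78.3, 38.4, 39.7 and 54 in MCT-fed and 40.8, 43.6 and 54.4 in control-fed 3xTg mice. In WT mice it had 71.4, 55.1, 61.2 and 52.8 on the ketogenic, 50.1, 49.7, 63.1 and 46.2 on the MCT and 86.3, 74.2, 60.8 and 47.5 on the control diet. It peaked in 3xTg_K_5, and the control-fed 3xTg mice lay low but overlapped their WT counterparts. Parp9 ranged from 47.2 to 87.3 and Dtx3l from 106 to 168.

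Of the other induced genes, Xaf1, which favours cell death, had its highest value, 91.8, in 3xTg_K_2. On the control diet Xaf1 had 72.8, 66.3 and 65.8 normalised counts in 3xTg mice, against 45.5, 29.4, 54.2 and 52 in WT mice. The value of 65.8 was that of the library labelled 3xTg_C_3, and the limma adjusted p of the difference was 0.224. Lgals3bp, a secreted glycoprotein, reached 234, 227 and 221 in 3xTg_M_1, 3xTg_K_2 and 3xTg_K_5 and at most 165 elsewhere. Ifi44 reached 25, 22.5 and 21.6 in 3xTg_K_5, 3xTg_M_1 and 3xTg_K_2. It did not set these mice apart, since the median of ketogenic-fed 3xTg mice was 20.5 and WT_K_1 had 19.2. The value of 3xTg_K_2 rested on 4 reads, with an interval of 5.89 to 55.3. Sp100, a nuclear body protein, peaked instead in WT_K_1 at 59, against 29, 29.1 and 26.4 in the other ketogenic-fed WT mice.

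WT_K_1 was also the highest of its group for 29 of the 42 genes, against 28.5% of all genes, with a mean of 0.35 above the other mice. Choroid plexus markers summed to 5305 in that library, with 9 of 10 the highest of its group, meningeal fibroblast markers to 2544, with 8 of 9, and endothelial and mural markers to 7293, with 11 of 13. In WT_C_1 the choroid plexus sum was larger, 13592, with 10 of 10 the highest of its group. WT_C_1 was the highest of its group for 8 of the 42 genes, against 23.5% of all genes, with a mean of -0.02. The library labelled 3xTg_C_3 was the highest of its group for 28 of the genes, against 34.6% of all genes, and 10 of 13 endothelial and mural markers peaked there too. The part of these markers in the levels was not tested.

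The comparison of 3xTg with WT mice averaged over the 3 diets asked which of the genes differed with genotype. Of the 41 members tested, only Eif2ak2 rose, in a comparison that called 8.1% of all genes tested. By unadjusted p under 0.05 there were 11 members, beside 24.4% of all genes. Its log2 difference was 0.34 ± 0.09 (SE), with a limma adjusted p of 0.0175 over all genes. Next by p were Stat2, at 0.20 ± 0.07 and an adjusted p of 0.0822, and Ifit3b, at 0.40 and 0.0986. Over all 42 genes the median log2 difference was 0.12, with 34 above 0, beside 49.6% of all genes tested. Many of the genes were high or low together in single mice, so a count of genes above 0, here and below, is not a count of mice.

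The libraries against their Thy1 label bore on Stat2. In the other 21 libraries 3 members were higher in 3xTg mice, beside 13.2% of all genes called. Stat2 rose by 0.30 ± 0.05 (limma adjusted p = 0.000319), Eif2ak2 by 0.42 ± 0.08 (adjusted p = 0.00155) and Usp18 by 1.05 ± 0.28 (adjusted p = 0.0141) on the log2 scale. Leaving out the library labelled 3xTg_K_1 alone gave 5 called members, leaving out the library labelled 3xTg_C_3 gave 2 and leaving out 3xTg_M_3 gave 3. The shares of all genes called in these single-library fits are not given here, so their counts are not a result about the members alone.

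**Figure D4:**
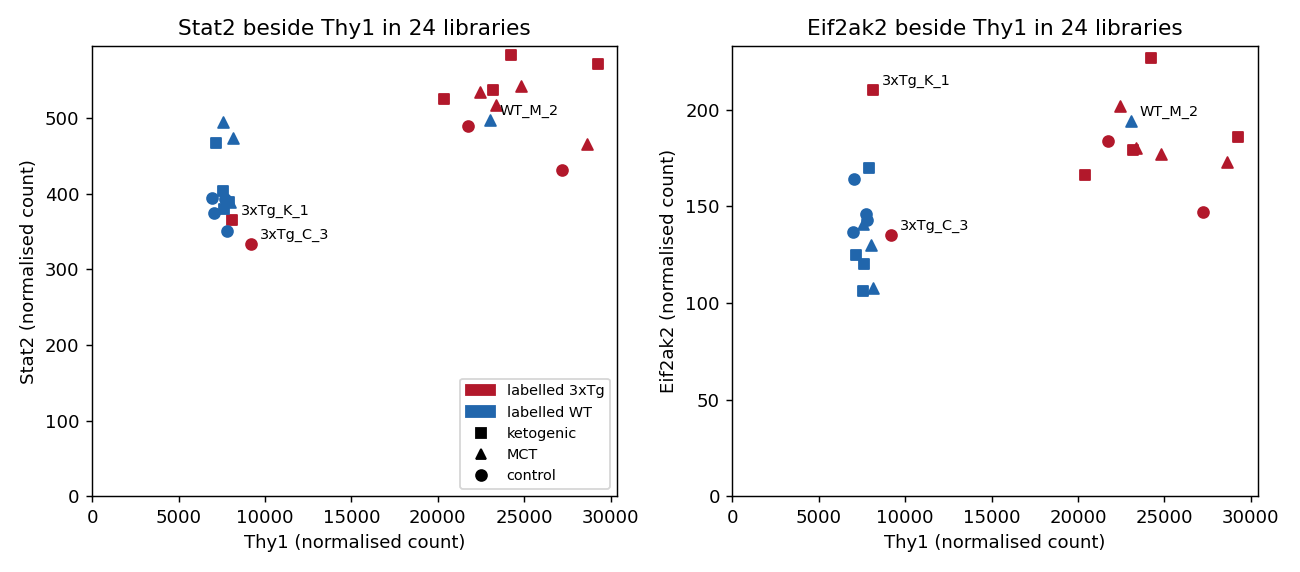
Each point is 1 library, with its normalised count of Thy1 on the horizontal axis and that of Stat2 or Eif2ak2 on the vertical axis, coloured by labelled genotype and shaped by diet. The libraries labelled 3xTg_K_1 and 3xTg_C_3 lie at 365 and 333 for Stat2, within the WT values and below the lowest of them, 351, while for Eif2ak2 the library labelled 3xTg_K_1 lies high at 210.

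The genotype difference was also taken within each diet. On the ketogenic diet 0 of the 41 members passed, beside 0.155% of all genes, while 12 had an unadjusted p under 0.05, beside 14.6% of all genes. The median log2 difference was 0.34, and 37 of 42 genes were above 0. The smallest p values were those of Eif2ak2 (0.58 ± 0.14, limma adjusted p = 0.0591), Oasl2 (1.45 ± 0.43, 0.114) and Irgm1 (0.49 ± 0.15, 0.119). On the MCT diet 0 passed, beside 0% of all genes, and 3 had an unadjusted p under 0.05, beside 7.12% of all genes, with a median of 0.14 and of -0.02 without 3xTg_M_1. In the 21 libraries 6 had, beside 10.6%. Eif2ak2 (0.38), Ifit2 (0.29) and Parp9 (0.35) came first with all 24. On the control diet 0 passed, beside 0.0565% of all genes, and 4 had an unadjusted p under 0.05, beside 14.5%. The median there was -0.14, with 26 of 42 genes below 0, and Xaf1 (0.62, limma adjusted p = 0.224), Parp14 (-0.51) and Trim25 (-0.44) came first.

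Without the 3 libraries against their Thy1 label, 7 members passed on the ketogenic diet, all higher in 3xTg mice, beside 3.62% of all genes. They were Stat2 (0.44 ± 0.08), Eif2ak2 (0.55 ± 0.13), Ifit3 (1.03 ± 0.25), Oasl2 (1.77 ± 0.43), Bst2 (1.60 ± 0.39), Gbp3 (1.21 ± 0.30) and Usp18 (1.70 ± 0.44), with limma adjusted p values from 0.0022 to 0.0289. This fit left 4 ketogenic-fed 3xTg mice, and when the shallow 3xTg_K_2 was left out as well, 1 member passed. Leaving out the library labelled 3xTg_K_1 alone gave 6 called members. Leaving out WT_K_1, the library labelled 3xTg_C_3 or the library labelled WT_M_2 gave 1 each. For the fit also without 3xTg_K_2 and these single-library fits, the share of all genes called is not given here. Those counts are therefore not a result about the members alone.

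Within 3xTg mice the ketogenic diet was set against the control diet, and 0 of the 41 members passed, beside 0% of all genes. The values leaned upward: 39 of 42 genes were above 0, beside 47.9% of all genes, with a median log2 difference of 0.42. The ketogenic-fed 3xTg mice were not alike in this. Mice 3xTg_K_5 and 3xTg_K_2 were the highest of that group for 22 and 16 genes, against 21.8% and 23.5% of all genes. Mouse 3xTg_K_4 and the library labelled 3xTg_K_1 were the highest for 0, against 16.4% and 20.9%. By unadjusted p under 0.05 there were 13 members, beside 6.69% of all genes. Oasl2 differed by 1.36 ± 0.47 (limma adjusted p = 0.724), Parp14 by 0.64 and Gbp7 by 0.48. Left out in turn, single libraries moved the median between 0.31 and 0.54. In the 21 libraries all 41 tested members were above 0, with a median of 0.68, and 21 had an unadjusted p under 0.05, beside 6.52% of all genes. By adjusted p 0 passed there, beside 0% of all genes, and the control group then held 2 mice.

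In WT mice the ketogenic diet gave no such lean. Of the 42 genes 15 were above 0, with a median log2 difference of -0.05, and 0 passed, beside 0% of all genes. A single member had an unadjusted p under 0.05, beside 4.62% of all genes. Xaf1 differed by 0.45, Bst2 by -0.91 and Sp100 by -0.50, each with a limma adjusted p of 0.983 or above. The difference between the genotypes in the ketogenic response had a median of 0.46, with 37 of 42 genes above 0, and 6 members had an unadjusted p under 0.05, beside 6.68% of all genes. By adjusted p 0 passed, beside 0% of all genes. Parp14 (0.78), Sp100 (0.89) and Oasl2 (1.59 ± 0.66, limma adjusted p = 0.724) came first. In the 21 libraries that difference had a median of 0.71 over the 41 tested members, with 38 above 0. There 16 had an unadjusted p under 0.05, beside 6.59% of all genes, and 0 passed by adjusted p, beside 0%.

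The MCT diet was set against the same control-fed mice as the ketogenic diet. In 3xTg mice 35 of 42 genes were above 0 against the control diet, with a median log2 difference of 0.15, and 0 passed, beside 0% of all genes. By unadjusted p under 0.05 there were 3 members, beside 2.67% of all genes. Stat2 (0.32), Ifi27 (0.27) and Dtx3l (0.27) came first, and Stat2 was 0.16 without the library labelled 3xTg_C_3. Leaving out single libraries moved the median between 0.00 and 0.30, and in the 21 libraries 1 member had an unadjusted p under 0.05, beside 1.17% of all genes. In WT mice the median was -0.03, 0 passed, beside 0.00706% of all genes, and 1 member had an unadjusted p under 0.05, beside 4.79%. Stat2 (0.29), Ifit2 (-0.21) and Ddx58 (0.32) came first. Between the genotypes the MCT response differed by a median of 0.25, and 0 members had an unadjusted p under 0.05, beside 2.78% of all genes. Xaf1 (-0.57), Ifit2 (0.28) and Ifitm3 (0.56) had the smallest p there, and 0 members passed, beside 0% of all genes.

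**Figure D5:**
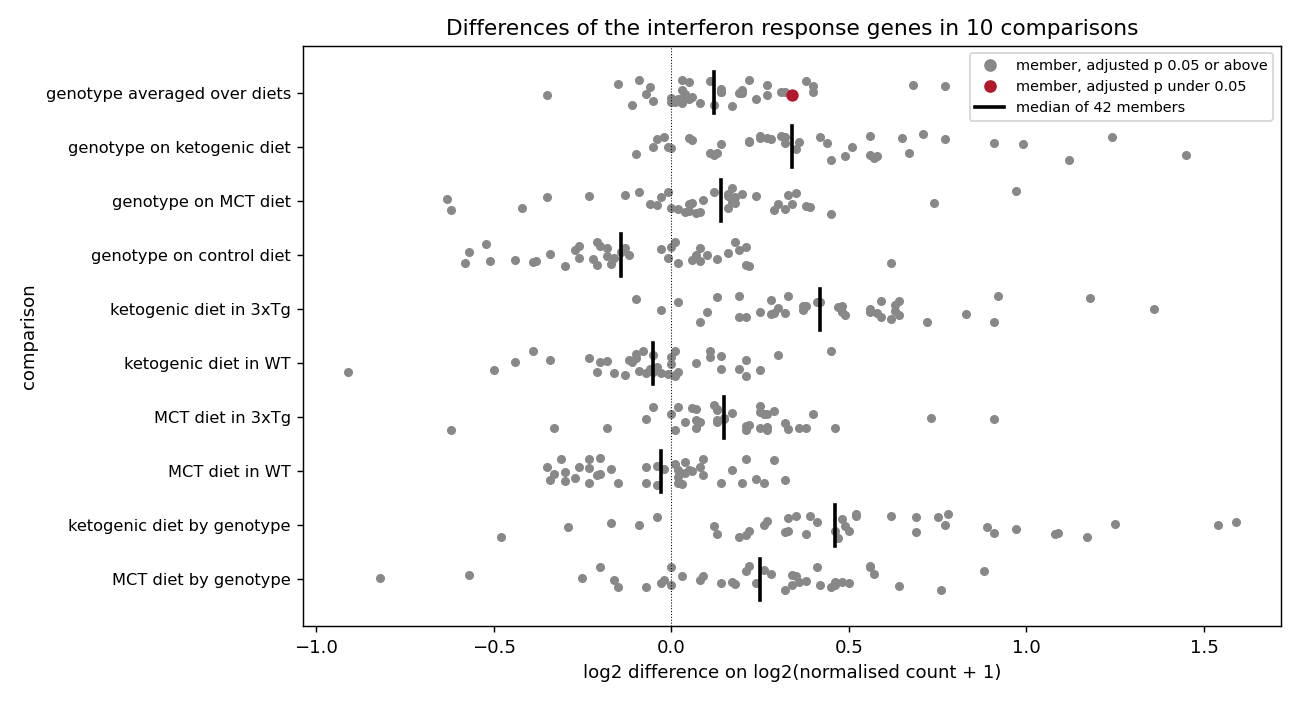
Each point is the log2 difference of 1 tested member in 1 of 10 comparisons, and black bars are medians over the 42 genes. The medians lie at 0.34 for genotype on the ketogenic diet, 0.42 for the ketogenic diet in 3xTg mice and 0.46 for the difference between the genotypes, and Eif2ak2 averaged over diets is the single point past the threshold.

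Other genes of the pathway were tested from a list of 125 in the table, of which 82 passed the filter on low values. It holds 12 interferon genes, 8 receptor and kinase genes, 10 other transcription factors and regulators, 17 genes of the upstream sensing pathway and 78 other interferon-induced genes, 49 of these tested. All 12 interferon genes of the list had 0 reads in all 24 libraries, and 3 reads, the limit that a count of 0 allows, correspond to 1.69 to 16.2 normalised counts depending on the library. Averaged over diets, 4 of the 82 rose and 1 fell in 3xTg mice, beside 8.1% of all genes called. Ifnar1, a chain of the type I receptor, fell by 0.17 on the log2 scale (limma adjusted p = 0.0471). Tbk1, the kinase that activates IRF3, rose by 0.11 (0.0487), and Tlr7, a sensor of single-stranded RNA, rose by 0.48 (0.0241). Trim30d and Trim12a, relatives of the tripartite-motif member Trim30a, were higher by 2.48 (0.00705) and 2.95 (0.0113). Both were present in some WT libraries and nearly absent in others, as given under the other observations, so these means do not describe a shift shared by all mice. No gene of this list passed in any other comparison of the 24 libraries. In the 21 libraries 7 rose and 2 fell averaged over diets, beside 13.2% of all genes. Tbk1 was not among them, at 0.09 (limma adjusted p = 0.108), while Ifnar1, Tlr7, Trim12a and Trim30d were. Between genotypes on the ketogenic diet 3 rose, beside 3.62% of all genes.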

How the data were processed

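Hippocampal RNA of 24 female mice was measured. The authors deposited 1 table of signal values, normalised counts per gene, made with Trimmomatic, STAR and the GRCm38 genome per the submitters' processing notes. For the gene counter, the annotation and the scaling tool, the sources used here name nothing. Each column was a whole number of reads times 1 step (100% of values within 0.01 reads), so these reads were recovered. Single genes at low reads are imprecise in 3xTg_K_2.

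Genes at 10 or more normalised counts in at least 3 libraries were kept (14162, including 41 of 42 members). Log2(value + 1), a scale that understates changes of low genes, went into limma 3.58.1 (R 4.3.3), which took 1 mean per group and a trended prior. The two-sided p values were adjusted by Benjamini-Hochberg over every gene kept, and those under 0.05 count as called or passed. Nothing in the labels says more of the replicates than that each is a hippocampus of 1 mouse. The fit was tried on simulated counts, drawn separately for each gene with the same dispersion for all. The members had unequal SDs and were often high or low together in single mice, so that trial does not bear on them.

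The members, lists, tests and alternatives were chosen with earlier results of these data known. Named were the called members of a comparison (at most 10), or the 3 of smallest p where fewer were called. Values by mouse were given for at most 12 of these by p and for Irf7, Stat2, Ifit3, Isg15, Oasl2, Bst2, Gbp3 and Psmb8, and for a mouse apart the 6 members with the largest lead. Other members appear by range, peak or group values chosen after their values were seen. Alternatives were a pseudocount of 0.5 or 5, keeping every gene, keeping genes with a mean over 50, TMM factors, edgeR 4.0.16 and DESeq2 1.42.0 on the recovered reads, a replicate block, each library left out, and fits without the 3 libraries against their Thy1 label. A fit that also left out the shallow 3xTg_K_2 was added after seeing the data. Intervals on reads are exact Poisson.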

Additional observations from a re-analysis of the deposited data

Results flagged for a closer look

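Among the members chosen for values by mouse, 5 values stood apart from the rest of their group by a gap that exceeded Dixon's 95% critical value. The control-fed 3xTg group, with 3 libraries, was left out of this test. The 5 values came from 90 combinations of gene and group, or 5.56%, where chance flags about 1 in 20. Over all genes tested 5.51% of combinations were flagged. Over all 42 members 17 of 210 combinations (8.1%) were flagged. Stat2 was low in the library labelled 3xTg_K_1, at 365 normalised counts, with the next value of the group at 525. Isg15 was high in 3xTg_K_2, at 48.6, with the next at 9.75. Psmb8 was high in 3xTg_K_5, at 50.9, with the next at 32.2. In WT_K_1, Gbp7 stood at 118 with the next at 99, and Sp100 stood at 59 with the next at 29.1.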

How the results depend on the processing

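The count of called members depended most on the libraries whose Thy1 goes against their labels. Without these libraries calls over all genes rose too, from 8.1% to 13.2% averaged over diets and from 0.155% to 3.62% on the ketogenic diet. For the other fits that share is not given here, so their counts are not a result about the members alone. For genotype averaged over diets, 1 member passed with limma, 4 with DESeq2, 3 without the 3 libraries against their Thy1 label and 3 when the shallow 3xTg_K_2 was left out too. Leaving out 1 library gave 1 to 5, with 5 without the library labelled 3xTg_K_1. For genotype on the ketogenic diet 0 passed, against 1 with DESeq2, 7 without those 3 libraries and 1 without 3xTg_K_2 as well, and leaving out 1 library gave 0 to 6. For genotype on the MCT diet 0 passed, against 1, Eif2ak2, without the 3 libraries and 3xTg_K_2. The cause was not tested. No called member changed sign between the 24 and the 21 libraries, but 30 of the 410 differences of members over 10 comparisons did. The median of the list was 0.14 for genotype on the MCT diet and -0.02 without 3xTg_M_1. For the ketogenic diet in WT mice it was -0.05 and 0.01 without WT_K_4, and for the MCT diet in WT mice -0.03 and 0.01 without WT_M_1. In the other 7 comparisons 0 members passed under every one. With edgeR the counts were as in limma for all comparisons. A replicate block gave 1 called member averaged over diets and 0 elsewhere. Same-numbered libraries did not deviate together (55 pairs, correlations from -0.26 to 0.25), so the numbers were not taken to pair mice. Depth limits Isg15, Usp18, Oas2 and Zbp1 most.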

Other observations

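Trim12a and Trim30d were present in some WT mice and nearly absent in others. Trim12a had 23.4, 26.1, 46.4 and 37.2 normalised counts in WT_C_3, WT_K_1, the library labelled WT_M_2 and WT_M_4, and between 0 and 2.9 in the other 8 WT libraries. Trim30d had 10.3, 19.2, 18.8 and 18.1 in those 4 libraries and between 0 and 2.9 in the other 8. In 3xTg mice Trim12a lay between 16.4 and 55.8, except for 1.91 in the library labelled 3xTg_C_3, where Trim30d was 3.82. In the library labelled 3xTg_K_1 they were 16.4 and 6.57. Trim30a, the member of the list, ranged from 16.5 to 57.7 in 3xTg mice and from 20.7 to 43.9 in WT mice.

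Of 49 other interferon-induced genes outside the list that were tested, 29 were highest of the group in 3xTg_M_1, beside 24.3% of all genes tested, 24 in 3xTg_K_5, beside 21.8%, and 29 in WT_K_1, beside 28.5%. The library labelled 3xTg_C_3 had 23, beside 34.6%, WT_C_2 had 21, beside 26.8%, and 3xTg_K_2 had 13, beside 23.5%, with a mean of -0.06 on the log2 scale relative to the other mice of its group.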
